A study of Homo sapiens with 3 samples.

Results

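The genes described here are the translation initiation and elongation factor genes of PC3 cells. They were chosen by symbol: names that start with EIF or EEF followed by a number, without names ending in P and digits, without antisense or divergent transcripts and without EIF1AY. Of 212 such names, 68 remained after this step, and 63 of them had a mean of at least 1 TPM (a transcript's share of its library, scaled to a fixed total and corrected for length) over the libraries, out of 13629 gene names that reached that level in the whole table. The name rule also left out 136 numbered pseudogenes and the 3 genes of the eIF4E-binding proteins, EIF4EBP1 to EIF4EBP3. Just inside the minimum was EIF2S3B, with a mean of 1.21 TPM, and just outside it was EIF4E3, with 0.98 TPM. EIF5AL1 and EIF4E1B had means of 0.19 and 0.063 TPM, and the readthrough names EEF1AKMT4-ECE2 and EEF1E1-BLOC1S5 were listed at 0 in all libraries.

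RNA-seq was performed on 3 libraries of total RNA from PC3, an androgen-independent human prostate cancer cell line. Control cells gave 1 library, shCON, the paper's name for its vector control, which is labelled RFP in the deposited data. Cells with the short hairpin RNAs shUSP16#1 and shUSP16#2 gave 1 library each. Both hairpins target USP16, a ubiquitin-specific protease that removes ubiquitin from histone H2A and other proteins. The study delivered its hairpins from the lentiviral vector pLKO.1 and isolated stable PC3 transformants with puromycin, an antibiotic selection shared by all groups. The interval from selection to harvest was not given in the sources used here. With 1 library per condition, no difference has a replicate check and no p-value is given. Both hairpins were compared with the same shCON library, so the comparisons are not independent.

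USP16 itself was at 19.9 TPM in shCON, 3.50 TPM with shUSP16#1 and 1.08 TPM with shUSP16#2, which is 17.6% and 5.42% of shCON. The labelled epithelial line was checked by its markers: the luminal keratins KRT8 and KRT18 lay between 622 and 947 TPM in all libraries, while KLK3, which encodes prostate-specific antigen, was listed at 0. Genes at 1 TPM or more numbered 13756 in shCON, 13694 with shUSP16#1 and 12979 with shUSP16#2. Changes are given as log2 of (TPM + 1) of a hairpin over (TPM + 1) of shCON, which makes changes of genes near 1 TPM look smaller than they are. The median change of all tested genes was itself below 0, at -0.17 with shUSP16#1 and -0.37 with shUSP16#2. TPM values are shares of a library, so less mRNA per cell and unequal change among genes cannot be told apart.

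Protein synthesis begins when the small ribosomal subunit, carrying eIF3, eIF1, eIF1A and eIF5, joins eIF2 with GTP and the initiator tRNA and is brought to the mRNA cap by eIF4F, which consists of the cap-binding eIF4E, the scaffold eIF4G and the helicase eIF4A. eIF2B recharges eIF2 with GTP, and eIF5B joins the large subunit at the start codon. Elongation then needs eEF1A, which brings each aminoacyl-tRNA, the eEF1B complex, which reloads eEF1A with GTP, eEF2, which moves the ribosome along the mRNA, and eIF5A, which relieves stalled ribosomes. Messenger RNAs of elongation factors and ribosomal proteins commonly open with a C followed by a run of pyrimidines (a 5′ TOP sequence), which places their translation under the control of the kinase mTOR.

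The starts of 10 genes are shown because the TOP class is defined by the sequence at the start. Each line gives 30 bases around the start annotated by RefSeq, 10 before it and 20 from it onward, read 5′ to 3′ on the coding strand of build GRCh38.p14. Capitals mark a run that opens with C, goes on with at least 4 pyrimidines (C or T) and begins within 5 bases of the start. Lines without capitals held no such run. EEF1B2 has another annotated start (chr2:206159599-206159628), which is not shown and held no such run.
EEF1A1, chr6:73521013-73521042, minus strand: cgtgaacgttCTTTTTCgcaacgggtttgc
EEF1B2, chr2:206159885-206159914, plus strand: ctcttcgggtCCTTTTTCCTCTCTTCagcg
EEF2, chr19:3985444-3985473, minus strand: cgtcagcgttCTCTTCCgccgtcgtcgccg
EEF1G, chr11:62573872-62573901, minus strand: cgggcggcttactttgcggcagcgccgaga
EIF3F, chr11:7987327-7987356, plus strand: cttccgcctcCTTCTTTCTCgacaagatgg
EIF4B, chr12:53006446-53006475, plus strand: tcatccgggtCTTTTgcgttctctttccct
EIF2A, chr3:150546777-150546806, plus strand: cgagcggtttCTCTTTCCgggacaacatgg
EIF1AX, chrX:20141819-20141848, minus strand: gagtcgcggcgccatttgctgccgccgagc
EIF5B, chr2:99337379-99337408, plus strand: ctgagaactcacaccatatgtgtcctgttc
EIF4E, chr4:98929114-98929143, minus strand: tggagcggttgtgcgatcagatcgatctaa

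Among the 63, 46 had lower values with each hairpin than in shCON, 8 had higher values with each and 9 went in opposite directions, against 57.2% lower and 24.5% higher among all tested genes. A gene is said below to have risen or fallen (to be called) only if (TPM + 1) differed from shCON by at least 1.5-fold in the same direction under both hairpins. By this rule 18 of the 63 fell (28.6%), against 20.8% of all tested genes, and 1 rose, EEF1G, against 4.04%. The median change of the 63 was -0.35 with shUSP16#1 and -0.51 with shUSP16#2. Subtraction of the median of the whole table left -0.18 and -0.14. After that subtraction 36 of the 63 were below 0 with both hairpins and 22 above, against 41.7% in each direction in the table, 9 were at least 1.5-fold lower (11.2% in the table) and EEF1G alone at least 1.5-fold higher (9.72%). With a cut-off of 2-fold and no subtraction, 6 of the 63 were lower, against 4.58%, and 0 higher, against 1.12%. With a minimum of 5 TPM, 17 of 58 fell, against 21.1%, and 1 rose, against 3.68%.

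The changes ran from -1.38 to 0.73 with shUSP16#1 and from -2.09 to 0.73 with shUSP16#2. In 53 of the 63 genes the value with shUSP16#2 was below that with shUSP16#1, as it was in 73.5% of all tested genes. The 63 genes together made up 1.86% of all TPM in shCON, 1.77% with shUSP16#1 and 1.67% with shUSP16#2.

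Initiation and elongation factors lay apart. The 40 initiation factor genes had median changes of -0.39 and -0.57. Of them 14 fell (35.0%, against 20.8% of all tested genes) and none rose. The 8 elongation factor genes had medians of -0.02 and 0.11, and 1 fell, EIF5A2, while EEF1G rose. The difference between the medians of the groups was 0.37 with shUSP16#1 and 0.68 with shUSP16#2. Summed over genes, elongation factors held 9305 TPM in shCON, 10273 with shUSP16#1 and 9955 with shUSP16#2, while initiation factors held 8615, 6951 and 6244 TPM. The ratio of these sums was thus 1.08 in shCON, 1.48 with shUSP16#1 and 1.59 with shUSP16#2. The plot of TPM by library shows that the elongation genes are also the most abundant, with 6 of the 8 above every initiation factor but EIF4A1 in all libraries.

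**Figure D1:**
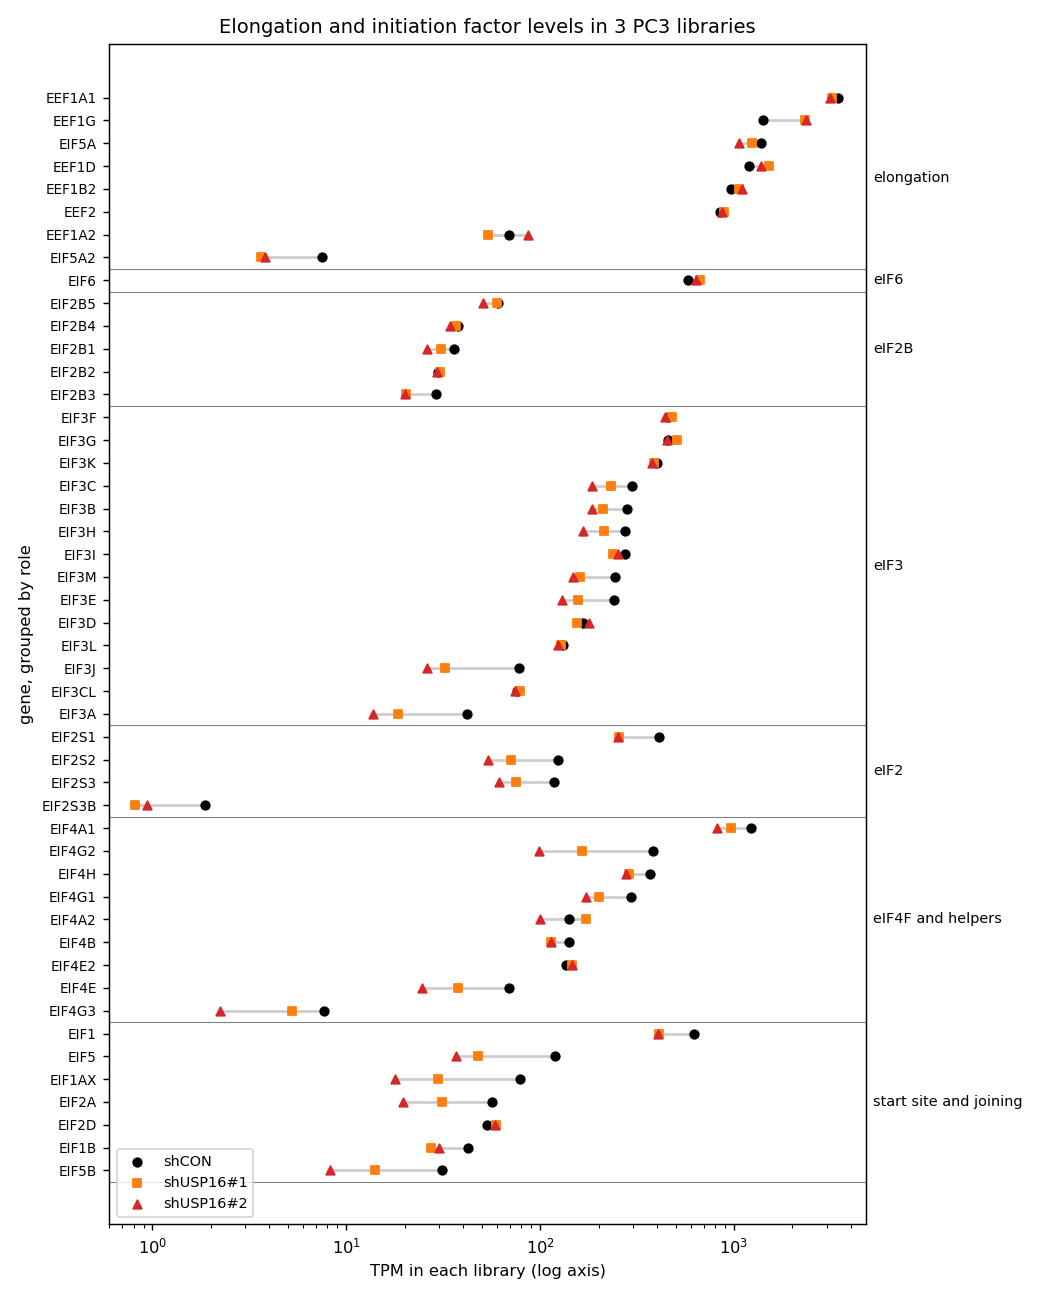
TPM (log axis) of the 48 elongation and initiation factor genes, 1 row per gene grouped by role, with a black circle for shCON, an orange square for shUSP16#1 and a red triangle for shUSP16#2. Symbols of most elongation factors lie close together, with EEF1G at 1409 TPM in shCON and at 2332 and 2343 TPM with the hairpins, while EIF1AX runs from 78.8 TPM down to 17.7 TPM.

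The same groups also differed in base composition, and change followed base composition across the whole table. The median G + C content of the annotated transcripts was 55.2% for elongation factors and 47.8% for initiation factors. Across all 13290 tested genes with a G + C value, Spearman's rho of change against G + C was 0.55 with shUSP16#1 and 0.65 with shUSP16#2, and across the 63 factor genes it was 0.69 and 0.71. Genes share their library here, so these are descriptions of the libraries. When the median change of genes of like G + C content was subtracted (50 bins, with the median of all genes added back), the difference between elongation and initiation medians was 0.10 and 0.20 in the 2 hairpins. On the mean of both hairpins it went from 0.54 to 0.025. After this step 10 of the 63 genes were at least 1.5-fold lower with each hairpin, against 11.8% of the 13290, and 0 were higher, against 2.39%. On this scale all tested genes still had medians of -0.17 with shUSP16#1 and -0.37 with shUSP16#2. Genes of like G + C content thus lay around those values and not around 0. A gene past 1.5-fold lower on this scale can differ from such genes by less than 1.5-fold. A higher gene under 1.5-fold can differ from them by more.

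A split of the initiation factors by composition, chosen after the values were seen, gave the following values. EEF1A1 has the lowest G + C content of the elongation factors other than EIF5A2, 45.5%. The 23 initiation factors above it had median changes of -0.10 and -0.13, and 1 of them, EIF1, fell. The 17 below it had medians of -0.80 and -1.19, and 13 of them fell (76.5%, against 20.8% of all tested genes). The 7 elongation factors without EIF5A2 had medians of 0.07 and 0.18. With the G + C trend removed, the 23 had medians of -0.15 and -0.32 and the 17 had -0.36 and -0.76. The 7 then had -0.07 and -0.23. Of the 17, 7 were then at least 1.5-fold lower, as were 2 of the 23, against 11.8% of the 13290 genes. The part of base composition in the contrast between the groups was not tested.

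**Figure D2:**
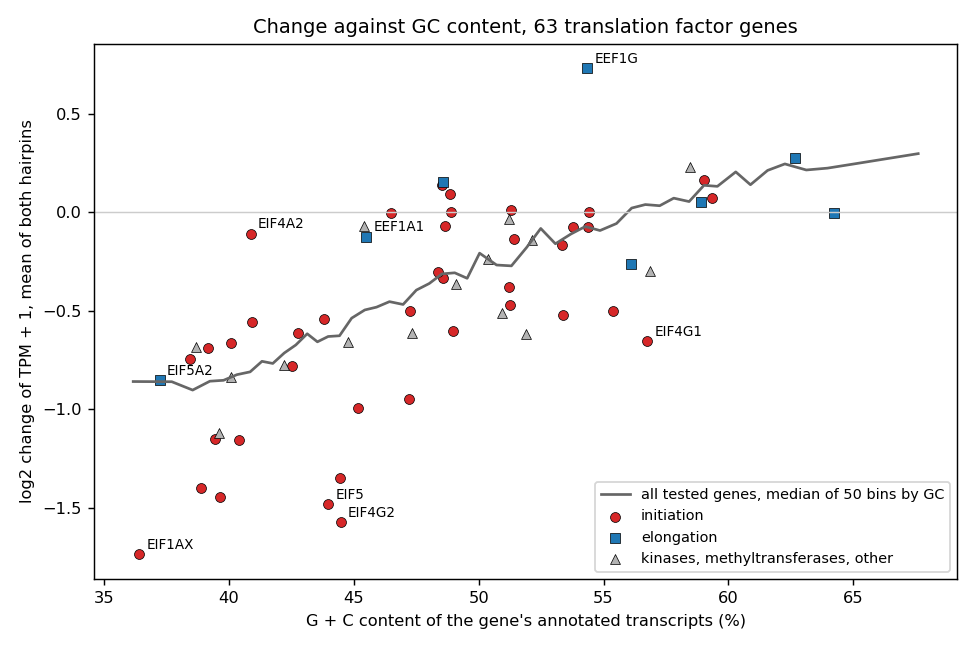
Mean log2 change of TPM + 1 over both hairpins against the G + C content (%) of each gene's annotated transcripts, with initiation factors as red circles, elongation factors as blue squares and the other factor genes as grey triangles. The grey line is the median of all tested genes in 50 bins of G + C content. EIF1AX, EIF5 and EIF4G2 lie well below the line and EEF1G lies well above it.

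Among the elongation factors, EEF1G was the one that rose. EEF1G encodes the gamma subunit of the eEF1B complex and lies on chromosome 11 at chr11:62559601-62574086, minus strand (GRCh38, GENCODE release 29). It was at 1409 TPM in shCON, 2332 TPM with shUSP16#1 and 2343 TPM with shUSP16#2, and the hairpin libraries were close to each other and well above shCON. This is 166% of shCON in both, a log2 change of 0.73 under each. EEF1G was at percentile 95.2 of the mean change of all tested genes. With the G + C trend removed its change was 0.55 and 0.51, under 1.5-fold above 0. All tested genes had medians of -0.17 and -0.37 on that scale. An annotated transcript on the same strand, AP002990.1, overlaps EEF1G and was at 2.68, 3.44 and 3.97 TPM.

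The other subunits of the eEF1B complex were not called. EEF1B2, the alpha subunit, was at 967 TPM in shCON, 1057 with shUSP16#1 and 1098 with shUSP16#2 (0.13 and 0.18). EEF1D, the delta subunit, was at 1193, 1514 and 1373 TPM (0.34 and 0.20). All 3 subunit genes were thus above shCON under both hairpins. With the G + C trend removed EEF1D was at -0.07 and -0.40 and EEF1B2 at 0.20 and 0.21. All tested genes had medians of -0.17 and -0.37 on that scale. Ratios of TPM, here and below, are not corrected for G + C content. The ratio of EEF1G to EEF1B2 was 1.46 in shCON, 2.21 with shUSP16#1 and 2.13 with shUSP16#2. The ratio of EEF1A1, the carrier of aminoacyl-tRNA that the complex reloads, to EEF1G went from 2.44 to 1.37 and 1.33.

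EEF1A1 had the highest TPM of the 63 genes in each library, with 3436 TPM in shCON, 3184 with shUSP16#1 and 3121 with shUSP16#2. Among the elongation factors EEF2 differed least from shCON, with 848, 889 and 866 TPM (0.07 and 0.03), and with the G + C trend removed it was at -0.23 and -0.46. Neither gene passed 1.5-fold in either library on either scale. EEF1A2, the form of eEF1A usual in neurons and muscle, went opposite ways, with 68.7 TPM in shCON, 54.0 with shUSP16#1 and 87.0 with shUSP16#2 (-0.34 and 0.34).

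The paired forms of eIF5A differed from each other. EIF5A, the common form, was at 1377, 1240 and 1062 TPM (-0.15 and -0.37). EIF5A2, the form found in testis, brain and some tumours, fell from 7.53 TPM in shCON to 3.65 and 3.79 TPM (-0.88 and -0.83). EIF5A2 has a G + C content of 37.2%, the lowest of the group, against 56.1% for EIF5A. With the G + C trend removed the change of EIF5A2 was -0.45 and -0.09, and that of EIF5A was -0.39 and -0.71. On that scale EIF5A was thus the lower form with shUSP16#2, and neither form passed 1.5-fold under both hairpins. The ratio of EIF5A to EIF5A2 was 183 in shCON, 340 with shUSP16#1 and 280 with shUSP16#2.

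**Figure D3:**
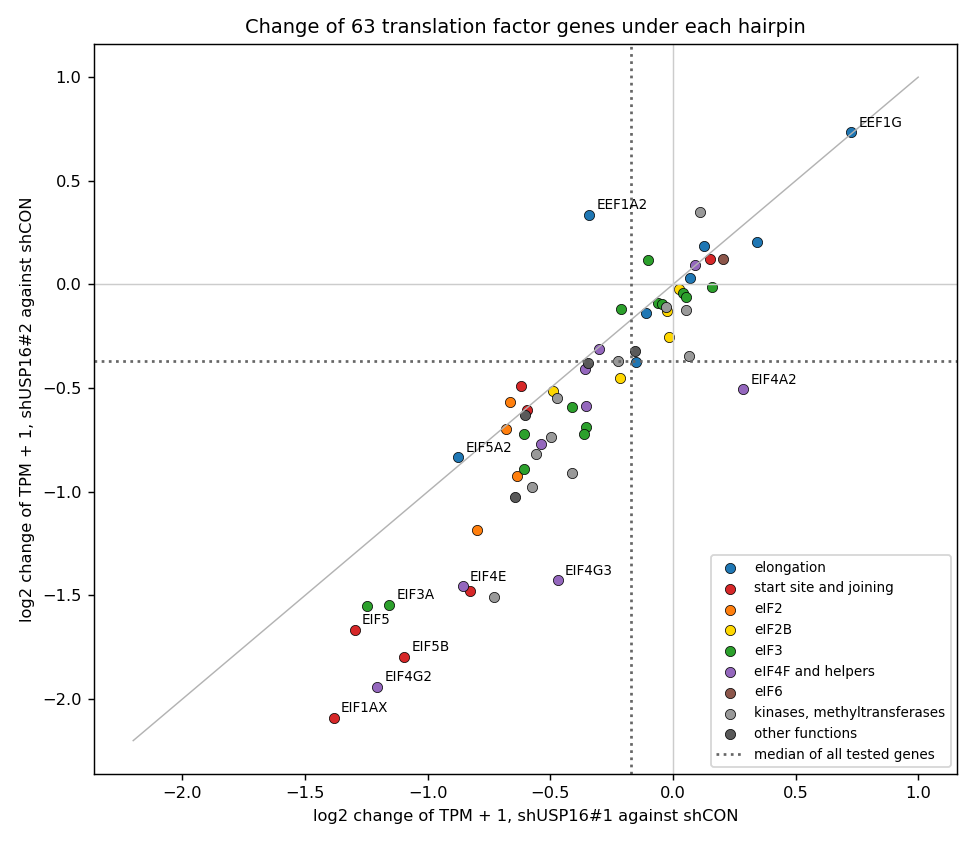
Log2 change of TPM + 1 against shCON with shUSP16#1 (horizontal axis) and shUSP16#2 (vertical axis) for the 63 factor genes, coloured by role. Dotted lines are the medians of all tested genes (-0.17 and -0.37) and the grey diagonal marks equal change. Most points lie below the diagonal, EIF1AX is at the lower left (-1.38 and -2.09) and EEF1G at the upper right (0.73 and 0.73). Both axes share the shCON library.

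The factors that select the start codon and join the subunits had the lowest medians of the initiation groups. The median change of the 7 genes was -0.83 with shUSP16#1 and -1.48 with shUSP16#2. Of the 7, 5 fell (71.4%, against 20.8% of all tested genes). Removal of the G + C trend left medians of -0.53 and -0.77, and 3 of the 7 then passed, since EIF2A and EIF1 did not. EIF1AX, the X-linked gene of eIF1A, which keeps the scanning ribosome open, was at 78.8 TPM in shCON, 29.6 with shUSP16#1 and 17.7 with shUSP16#2 (-1.38 and -2.09). EIF5, which makes eIF2 hydrolyse its GTP at the start codon, was at 119, 47.9 and 36.9 TPM (-1.30 and -1.67). EIF5B, the GTPase of subunit joining, was at 31.1, 14.0 and 8.23 TPM (-1.10 and -1.80). In these 3 genes each hairpin library lay below 50% of shCON, and shUSP16#2 was the lower. With the G + C trend removed, where all tested genes had medians of -0.17 and -0.37, each of the 3 stayed at least 1.5-fold below 0. EIF1AX was at -0.95 and -1.32, EIF5 at -1.03 and -1.24, and EIF5B at -0.65 and -1.11. Their G + C contents were 36.4%, 43.96% and 39.6%.

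EIF2A, which encodes a separate factor that can deliver initiator tRNA without eIF2, was at 56.1 TPM in shCON, 31.2 with shUSP16#1 and 19.5 with shUSP16#2 (-0.83 and -1.48), and at -0.36 and -0.77 with the G + C trend removed, under 1.5-fold with shUSP16#1. Its exons overlap those of SERP1 on the opposite strand, which was at 183, 153 and 155 TPM. The use of strand in the authors' counting is not given in the sources used here, so reads of overlapping genes may not be fully separate. EIF1, which guards start codon choice together with eIF1A, fell less, from 622 TPM to 411 and 408 TPM (-0.60 and -0.61), and with the G + C trend removed it did not pass (-0.53 and -0.57). Its paralog EIF1B was at 42.6, 27.4 and 30.1 TPM (-0.62 and -0.49), which passed under 1 hairpin. EIF2D, another factor that can place initiator tRNA, was on the other side of shCON, with 53.3, 59.3 and 58.2 TPM (0.15 and 0.12). The ratio of EIF1 to EIF1AX was 7.89 in shCON, 13.9 with shUSP16#1 and 23.0 with shUSP16#2.

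All 3 main subunits of eIF2, the carrier of initiator tRNA, fell. EIF2S1, the alpha subunit that the stress kinases phosphorylate, went from 408 TPM in shCON to 255 with shUSP16#1 and 252 with shUSP16#2 (-0.68 and -0.70). EIF2S2, the beta subunit, went from 124 to 70.9 and 53.9 TPM (-0.80 and -1.19). EIF2S3, the gamma subunit that binds GTP, went from 118 to 75.3 and 61.5 TPM (-0.64 and -0.93). With the G + C trend removed, EIF2S2 was still past 1.5-fold (-0.61 and -0.91), while EIF2S1 was at -0.22 and 0.01 and EIF2S3 at -0.28 and -0.41. On that scale the medians of all tested genes were -0.17 and -0.37. The retrocopy EIF2S3B was near the minimum, with 1.87, 0.81 and 0.94 TPM, and its sequence is close to that of EIF2S3, so its values are uncertain.

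eIF2B, the exchange factor that reloads eIF2, had no subunit that rose or fell. The medians of its 5 genes were -0.02 and -0.25. EIF2B3 had the lowest values, with 28.98 TPM in shCON, 20.38 with shUSP16#1 and 20.01 with shUSP16#2 (-0.49 and -0.51), and EIF2B2 lay next to shCON, with 29.8, 30.3 and 29.3 TPM. The median G + C content was 48.9% for the eIF2B genes and 42.6% for the eIF2 genes, and with the G + C trend removed the medians were -0.14 and -0.32 for eIF2B and -0.29 and -0.23 for eIF2.

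The 14 genes of eIF3, the large scaffold on the small subunit, did not move as 1 unit. Their medians were -0.28 and -0.36. Of them 4 fell (28.6%, against 20.8% of all tested genes): EIF3A, EIF3J, EIF3E and EIF3M. EIF3A, the subunit on which the complex is built, was at 42.2 TPM in shCON, 18.4 with shUSP16#1 and 13.8 with shUSP16#2 (-1.16 and -1.54). EIF3J, a loosely bound subunit, was at 78.1, 32.3 and 26.0 TPM (-1.25 and -1.55). These are 43.6% and 32.7% of shCON for EIF3A and 41.4% and 33.3% for EIF3J, the lowest shares of the complex. EIF3E was at 241, 158 and 130 TPM (-0.61 and -0.89) and EIF3M at 244, 160 and 148 TPM (-0.61 and -0.72). Both encode subunits of the core octamer.

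Other eIF3 subunits lay near shCON. EIF3F was at 459 TPM in shCON, 477 with shUSP16#1 and 441 with shUSP16#2, EIF3G at 456, 509 and 452 TPM, and EIF3K at 402, 386 and 379 TPM. EIF3D, which can itself bind the cap, was at 166, 154 and 180 TPM (-0.10 and 0.12). The 8 octamer genes had medians of -0.36 and -0.70, and the 3 genes of the EIF3B, EIF3G and EIF3I module had -0.21 and -0.12. With the G + C trend removed the order was reversed, at -0.15 and -0.22 for the octamer and -0.28 and -0.45 for the module. The highest TPM among the eIF3 genes was 10.9 times the lowest in shCON, 27.7 times with shUSP16#1 and 32.7 times with shUSP16#2, EIF3A being the lowest in each library. The spread of transcript levels among subunits was thus wider in the hairpin libraries.

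**Figure D4:**
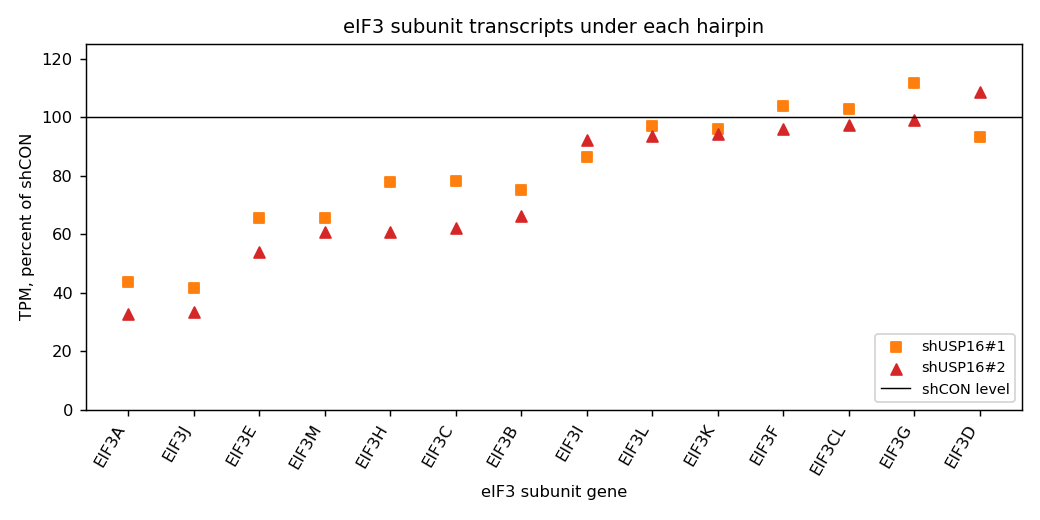
TPM of the 14 eIF3 genes as a percent of shCON (vertical axis from 0) with shUSP16#1 (orange squares) and shUSP16#2 (red triangles), ordered by the value with shUSP16#2. EIF3A and EIF3J lie between 32.7% and 43.6%, and EIF3F, EIF3G, EIF3K, EIF3L, EIF3CL and EIF3D lie around the line at shCON.

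EIF3C and EIF3CL encode nearly the same protein, so reads may be split between them. EIF3C was at 299, 233 and 185 TPM and EIF3CL at 76.4, 78.6 and 74.3 TPM. Their sum was 375 TPM in shCON, 312 with shUSP16#1 and 259 with shUSP16#2 (-0.27 and -0.53), which is under 1.5-fold. Within eIF3, Spearman's rho of change against G + C was 0.64 and 0.70 over the 14 genes. EIF3A and EIF3J stayed past 1.5-fold with that trend removed (-0.88 and -1.13, and -0.78 and -0.84), while EIF3E was at -0.14 and -0.14 and EIF3M at -0.17 and -0.03. EIF3B, at 279, 210 and 185 TPM (-0.41 and -0.59), passed only with the trend removed (-0.59 and -0.86). The medians of all tested genes on that scale were -0.17 and -0.37, not 0.

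In eIF4F and its helpers, the cap-binding protein and 1 scaffold-like factor fell. EIF4E, the cap-binding subunit, was at 69.0 TPM in shCON, 37.7 with shUSP16#1 and 24.5 with shUSP16#2 (-0.86 and -1.46). Its paralog EIF4E2, which binds the cap but acts mostly as a repressor, was at 137, 145 and 146 TPM (0.09 and 0.09). The ratio of EIF4E2 to EIF4E was therefore 1.98 in shCON, 3.86 with shUSP16#1 and 5.94 with shUSP16#2. With the G + C trend removed EIF4E was at -0.41 and -0.76, below 1.5-fold under shUSP16#1. EIF4E3, at 1.48, 0.74 and 0.73 TPM, was under the minimum.

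EIF4G2 (DAP5), an eIF4G relative that lacks the binding site for eIF4E, was at 382 TPM in shCON, 165 with shUSP16#1 and 98.7 with shUSP16#2 (-1.21 and -1.94), and at -0.93 and -1.52 with the G + C trend removed. EIF4G1, the main scaffold, was at 293, 201 and 172 TPM (-0.54 and -0.77), just short of 1.5-fold under shUSP16#1. EIF4G2 was thus above EIF4G1 in shCON and below it in both hairpin libraries, with ratios of 1.30, 0.818 and 0.575. EIF4G1 has a G + C content of 56.7%, and with the trend removed it passed (-0.82 and -1.15). EIF4G3 was at 7.65, 5.25 and 2.22 TPM (-0.47 and -1.43), and the libraries of the hairpins lay apart from each other.

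The helicase genes were not called. EIF4A1, the initiation factor with the highest TPM, was at 1226 TPM in shCON, 960 with shUSP16#1 and 818 with shUSP16#2 (-0.35 and -0.58). EIF4A2 was at 141, 173 and 99.4 TPM (0.29 and -0.51), the hairpins being on opposite sides of shCON. The helicase cofactors EIF4B and EIF4H had changes of -0.30 and -0.31, and of -0.36 and -0.41. EIF6, which keeps the ribosomal subunits from joining too early, was at 581, 669 and 633 TPM (0.20 and 0.12). With the G + C trend removed it was at -0.10 and -0.37, where all tested genes had medians of -0.17 and -0.37. EIF6 and EIF5B, which act in opposite ways on joining, had a TPM ratio of 18.7 in shCON, 47.8 with shUSP16#1 and 77.0 with shUSP16#2, at G + C contents of 59.0% and 39.6%.

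The enzymes that modify these factors numbered 11, with medians of -0.41 and -0.55, and 1 fell (9.09%, against 20.8% of all tested genes). All 4 eIF2 kinases, which shut down initiation under stress, were below shCON under both hairpins, as were 57.2% of all tested genes. Of the 4, EIF2AK2 (PKR), the sensor of double-stranded RNA, fell. EIF2AK2 was at 18.1 TPM in shCON, 10.5 with shUSP16#1 and 5.71 with shUSP16#2 (-0.73 and -1.51), and at -0.28 and -0.82 with the G + C trend removed. EIF2AK1 (HRI) was at 66.4, 46.8 and 39.5 TPM, EIF2AK4 (GCN2) at 48.1, 35.9 and 25.2 TPM, and EIF2AK3 (PERK) at 5.89, 3.63 and 2.50 TPM. None of these last 3 passed under shUSP16#1. With the G + C trend removed EIF2AK1 was at -0.41 and -0.57, EIF2AK4 at -0.15 and -0.62 and EIF2AK3 at -0.19 and -0.45. The medians of all tested genes on that scale were -0.17 and -0.37.

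The 6 methyltransferases of eEF1A and eEF2 had medians of -0.13 and -0.25, and none was called. EEF1AKMT4 was above shCON under both hairpins, with 40.1, 43.4 and 51.4 TPM (0.11 and 0.35). With the G + C trend removed it was at -0.14 and -0.03, where all tested genes had medians of -0.17 and -0.37. EEF1AKMT2 had the lowest changes, with 12.5, 8.16 and 6.66 TPM (-0.56 and -0.82). EEF2K, the kinase that inhibits eEF2, was low in all libraries, at 3.79, 4.01 and 2.77 TPM.

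Of the 4 genes that carry the name but have other functions, 2 fell. EEF1E1 (AIMP3), a scaffold protein of the aminoacyl-tRNA synthetase complex, was at 89.4, 56.8 and 43.3 TPM (-0.65 and -1.03). EIF1AD, an eIF1A-like protein, was at 49.1, 32.02 and 31.3 TPM (-0.60 and -0.63), and its exons overlap BANF1 on the opposite strand, at 579, 544 and 487 TPM. With the G + C trend removed EIF1AD was still past 1.5-fold (-0.67 and -0.71) and EEF1E1 was not (-0.20 and -0.33). On that scale the medians of all tested genes were -0.17 and -0.37. EIF4A3, the helicase of the exon junction complex, was at 238, 187 and 183 TPM (-0.35 and -0.38). EIF4ENIF1, which carries eIF4E into the nucleus, was at 7.31, 6.46 and 5.65 TPM (-0.16 and -0.32).

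The TOP class was described in 2 ways. By published knowledge, 9 of the 63 are TOP mRNAs: EEF1A1, EEF1B2, EEF1D, EEF1G, EEF2, EIF3E, EIF3F, EIF3H and EIF4B. Their medians were 0.05 and -0.06. The elongation genes among them other than EEF1G had changes between -0.14 and 0.34, while the 4 initiation genes had medians of -0.33 and -0.51, and the other 36 initiation genes had -0.44 and -0.57. After removal of the G + C trend these medians were -0.12 and -0.21 for the 4, and -0.28 and -0.41 for the 36. Of these 4, EIF3F lay at shCON, EIF3H was at 275, 213 and 166 TPM, EIF4B was at 140, 114 and 113 TPM, and EIF3E fell.

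By sequence, 49 of the 63 genes matched the RefSeq start table. The pyrimidine run shown in capitals above was present in 22 of the 49 (44.9%), against 29.3% of 9522 tested genes matched and 21.1% of all 35116 entries. A run that opened exactly at the start was present in 13 of the 49 (26.5%), against 7.48% of the tested genes. These 13 were EEF1A1, EEF1B2, EEF2, EIF2A, EIF2D, EIF2S3, EIF2S3B, EIF3D, EIF3F, EIF3K, EIF3M, EIF4A2 and EIF4B. Their median changes were -0.10 and -0.14, against -0.44 and -0.60 for the other 36 matched genes. Within the initiation factors, the 10 genes with a run at the start had medians of -0.20 and -0.41, against -0.47 and -0.59 for those without.

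The match did not follow the change gene by gene. EEF1G, which rose, had no run by this definition in the annotated window, and EIF2A, which fell before but not after removal of the G + C trend, opened with one. With the looser window of 5 bases, the 17 initiation factors with a run had medians of -0.54 and -0.61 and the 16 without had -0.38 and -0.50. A match at an annotated start is a description of the reference and not a measured transcript end, and these medians were not corrected for G + C content.

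Around these genes, 46 other genes of translation were listed, and all reached 1 TPM. Of them 21 fell (45.7%, against 20.8% of all tested genes) and none rose, with medians of -0.52 and -0.65. With the G + C trend removed 9 of the 46 were past 1.5-fold on the lower side, against 11.8% of the 13290 genes with a G + C value. On the higher side 1 was, TPT1, against 2.39%. In termination and recycling 5 of 8 fell, and 1, ETF1, with the trend removed, among them ETF1, the release factor eRF1 (56.7, 29.7 and 21.4 TPM), and ABCE1, the ATPase that splits ribosomes (48.4, 24.0 and 16.5 TPM). In poly(A) binding 3 of 4 fell, among them PABPC1, which bridges the tail to eIF4G, at 899, 580 and 512 TPM. Of these 3, 0 passed after subtraction of the table's median and 1, PABPC4, with the G + C trend removed. Both initiation helicases outside eIF4F fell, DDX3X from 61.1 TPM to 26.5 and 14.2 TPM and DHX29 from 7.04 to 3.25 and 1.97 TPM, and with the trend removed DDX3X alone of these passed. In mitochondrial translation 3 of 7 fell, among them GFM1, the mitochondrial elongation factor G (33.1, 12.7 and 11.6 TPM), the one that passed with the trend removed.

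Of the 14 genes of the 4E-BP and mTOR axis, 5 fell (35.7%, against 20.8% of all tested genes), and 3 were past 1.5-fold after subtraction of the table's median (11.2% in the table). By sign alone 9 of the 14 were below shCON under both hairpins and 4 above. MTOR was at 17.6, 8.81 and 8.27 TPM, and LARP1, which binds TOP mRNAs, at 51.9, 29.7 and 25.1 TPM. Of the S6 kinase genes, RPS6KB1 was at 15.5, 6.80 and 6.23 TPM. RPS6KB2 was not called and lay on the other side of shCON, at 94.7, 124 and 126 TPM (0.39 and 0.41). MTOR and LARP1 stayed past 1.5-fold with the G + C trend removed and RPS6KB1 did not (-0.63 and -0.55). RPTOR passed only with the trend removed (-0.72 and -0.73), where all tested genes had medians of -0.17 and -0.37. PDCD4, an inhibitor of eIF4A, and EIF4EBP3 also fell, but neither passed after subtraction of the table's median. With the G + C trend removed PDCD4 was at -0.18 and 0.03 and EIF4EBP3 at -1.00 and -1.05. EIF4EBP3 was near the minimum, at 2.50, 1.07 and 1.19 TPM, so its values are uncertain. EIF4EBP1, the repressor that sequesters eIF4E, was at 179 TPM in shCON, 219 with shUSP16#1 and 239 with shUSP16#2 (0.29 and 0.41), under 1.5-fold, and at -0.12 and -0.19 with the G + C trend removed. The ratio of EIF4EBP1 to EIF4E was 2.60 in shCON, 5.82 with shUSP16#1 and 9.75 with shUSP16#2, at G + C contents of 62.6% and 40.4%. ATF4, a gene whose translation rises when eIF2 is phosphorylated, was at 340, 369 and 351 TPM.

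Both enzymes of hypusine synthesis, which activate eIF5A, were below 1.5-fold: DHPS was at 88.4, 116 and 110 TPM (0.39 and 0.31, or 0.15 and -0.06 with the G + C trend removed) and DOHH at 42.4, 41.8 and 36.0 TPM. Among 5 known TOP mRNAs outside the family, HNRNPA1 (1078, 558 and 479 TPM), NAP1L1 (266, 138 and 127 TPM) and PABPC1 fell. TPT1 was at 1426, 2249 and 1705 TPM (0.66 and 0.26), or 0.99 and 0.70 with the G + C trend removed, and RACK1 at 1894, 2223 and 2018 TPM (0.23 and 0.09), or 0.05 and -0.13. NAP1L1 and PABPC1 did not pass with the trend removed.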

How the data were processed

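Per the labels, sequencing libraries were made from total RNA with an Illumina TruSeq kit, and the submitters' processing notes name CASAVA, HISAT2 and hg19. The quantification tool is not given in the sources used here. The authors deposited 1 table of TPM values (60930 entries, 2 decimals), a unit from which read numbers cannot be recovered, so library depth is unknown and values carry no counting interval. Its 3 columns that repeat sample names and its annotation columns were not used. Repeated names (1211) were left out, and changes were computed for the 13629 names whose mean was 1 TPM or more with Python 3.11.15, numpy 2.4.6 and pandas 2.3.3, with a pseudocount of 1. Identifiers were matched to GENCODE release 29 (GRCh38) for position, length and G + C content. Members, role groups, related genes and the rule for named genes (elongation factors, the lowest and highest of each role, all genes called, the most abundant, and paralogs) were chosen with earlier results of these data known. The remaining members were named with their values in view. The procedures were tested on simulated data.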

Additional observations from a re-analysis of the deposited data

How the results depend on the processing

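Values here are medians of the mean change over both hairpins, which were -0.47 for all 63 genes, 0.02 for elongation and -0.51 for initiation factors, with a difference of 0.54. After subtraction of the table's median they were -0.20, 0.29 and -0.24, and 9 genes fell in place of 18, all 9 among the 18. With the G + C trend removed they were -0.28, -0.25 and -0.28 with a difference of 0.025, 10 genes fell (8 shared with the 18, EIF3B and EIF4G1 added) and 0 rose. These counts are against 0, while all tested genes had medians of -0.17 and -0.37 on that scale, which favours calls on the lower side. EEF1G, at 0.55 and 0.51 there, was not called. At 2-fold with no subtraction, 6 fell and 0 rose. With shUSP16#1 alone the medians of all 63 and of initiation factors were -0.35 and -0.39 with a difference of 0.37, and with shUSP16#2 alone the difference was 0.68. A pseudocount of 0.1, a minimum of 5 TPM, no minimum, and sums with pseudogenes and EIF3CL left these medians within 0.1 and the counts within 1.5-fold. On the mean of both hairpins no called factor gene changed sign. With the G + C trend removed, however, EIF2S1, EIF3M and EIF3E, all called lower, were at -0.10, -0.10 and -0.14. These means lay above the median of all tested genes on that scale, -0.27. EIF2S1 was at -0.22 with shUSP16#1 and 0.01 with shUSP16#2. No paired analysis was possible because there was only 1 library for each hairpin and for shCON. Depth is unknown, and values near 1 TPM are the least certain.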

Other observations

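The 136 numbered pseudogenes of these factors summed to 18.8 TPM in shCON, 18.0 TPM with shUSP16#1 and 14.8 TPM with shUSP16#2, and 5 of them reached a mean of 1 TPM, the highest at 3.32 TPM. Of the 63 factor genes, 28 had exons that overlap another tested gene in GENCODE release 29. Small nucleolar RNAs that overlap factor genes were listed at 0 in some libraries: SNORA48, which overlaps exons of EIF4A1, was at 0, 0 and 40.3 TPM in shCON, shUSP16#1 and shUSP16#2, and SNORA67, which overlaps the same gene, was at 32.2, 0 and 0 TPM. SNORD97, which overlaps EIF4G2, was at 0, 0 and 32.4 TPM.

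Change followed transcript length less than base composition across the 63 factor genes, with Spearman's rho of -0.23 with shUSP16#1 and -0.29 with shUSP16#2, and it was -0.21 and -0.26 across all tested genes. Selenocysteine elongation needs EEFSEC, which was at 8.30 TPM in shCON, 12.0 with shUSP16#1 and 10.2 with shUSP16#2 (0.49 and 0.26, or 0.11 and -0.28 with the G + C trend removed).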
